A study of Mus musculus with 4 samples.

Results

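Long intergenic noncoding RNAs (lincRNAs) are transcripts longer than small RNAs that come from between protein-coding genes and carry no long reading frame. Those described here are the genes typed lincRNA in the authors' tables whose larger value of the 2 libraries compared was at least 2 FPKM (fragments for each kilobase of a transcript, corrected for library size). The members were thus selected on the same FPKM values that are described. In the table of stress-susceptible against control mice 88 of 895 lincRNAs passed, among 4321 genes of any type at that level and 12318 genes in all. In the table of AAV-CDYL against AAV-GFP mice 99 of 974 passed, among 6927 such genes and 15396 in all. Together 135 lincRNAs passed in either table and 52 in both, of 19175 genes listed in the series. Neither table lists a gene above 0 in both libraries with a log2 ratio under 0.32 in size.

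The 4 libraries, 1 per group, were made from the prelimbic cortex (part of the medial prefrontal cortex) of 8-week-old C57BL/6 mice. The control and susceptible samples belong to a chronic social defeat stress experiment, in which susceptible mice avoid social contact afterwards; the labels give the control sample the same stress tag. The other samples came from mice given adeno-associated virus (AAV) for green fluorescent protein (GFP) or for CDYL, a chromodomain protein that acts as a chromatin corepressor. No label gives the promoter of either virus, the cells it reached, or how many mice went into a sample. With 1 library per group no difference below has a replicate check, and none was tested. A lincRNA is called higher or lower at a difference of 1.5-fold or more on the log2(FPKM + 1) scale, and quoted folds are ratios of FPKM. A member under 2 FPKM in 1 library, the reference (control or AAV-GFP) or the treated one, entered through its other value, so its direction was fixed by the choice.

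Some lincRNAs act where they are made, as scaffolds of nuclear bodies or as regulators of a neighbouring gene, while others are processed into microRNAs or small nucleolar RNAs (snoRNAs) or bind microRNAs in the cytoplasm. The nuclear lincRNAs Malat1 and Miat are abundant in neurons. Neat1 is the scaffold of paraspeckles, nuclear bodies that hold RNA-binding proteins.

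Because microRNA content is what distinguishes several members, their microRNA sequences are shown first, 5′ to 3′ from RefSeq (GRCm38.p6), with the seed (bases 2 to 8) in capitals. 1700020I14Rik, which RefSeq lists as a synonym of Oip5os1 (Cyrano), is known for a site that pairs with miR-7 and sends it to degradation. The transcript of 8300 nt in GENCODE M21 held 2 matches to the miR-7 seed. The match shown, at chr2:119602137-119602161 on the plus strand, has capitals for the letters complementary to bases 1 to 8 and 11 to 23 of miR-7a-5p, with 4 bases between them. The 3 let-7 microRNAs share 1 seed and lie within 6720427I07Rik as GENCODE M21 annotates it, although the shorter interval in the authors' tables holds let-7d alone. Within their hosts lie miR-101a (E130102H24Rik), miR-191 and miR-425 (4833445I07Rik) and miR-134 (Mirg). MicroRNAs themselves were not measured.
miR-7a-5p: uGGAAGACuagugauuuuguugu
1700020I14Rik site: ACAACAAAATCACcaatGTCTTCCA
let-7a-5p: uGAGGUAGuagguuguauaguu
let-7d-5p: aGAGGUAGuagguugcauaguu
let-7f-5p: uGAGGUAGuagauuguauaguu
miR-101a-3p: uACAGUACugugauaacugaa
miR-191-5p: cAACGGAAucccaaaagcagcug
miR-425-5p: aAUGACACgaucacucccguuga
miR-134-5p: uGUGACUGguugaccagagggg

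Start regions of 4 members described below follow, 2 that were higher with AAV-CDYL (AW112010, AU020206) and 2 that were lower (Miat, Gm2694), since their base composition differs widely. Each is 300 bases, 250 before the start and 50 after it, from RefSeq (GRCm38.p6), with CG dinucleotides in capitals. AW112010 (chr19:11050517-11050816, minus strand) has 1 CG and AU020206 (chr7:75782071-75782370, minus strand) has 15. Miat (chr5:112228899-112229198, minus strand) has 25 and Gm2694 (chr8:87472866-87473165, plus strand) has 42. The first 150 bases of the Neat1 transcript (GENCODE M21, chr19:5845329-5845478, minus strand) hold 3.
AW112010: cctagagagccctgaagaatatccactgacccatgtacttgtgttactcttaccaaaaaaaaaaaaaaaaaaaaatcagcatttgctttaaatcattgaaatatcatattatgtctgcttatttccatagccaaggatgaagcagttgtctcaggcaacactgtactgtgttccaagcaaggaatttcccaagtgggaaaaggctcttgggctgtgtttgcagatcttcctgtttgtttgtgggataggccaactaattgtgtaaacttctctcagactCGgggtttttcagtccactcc
AU020206: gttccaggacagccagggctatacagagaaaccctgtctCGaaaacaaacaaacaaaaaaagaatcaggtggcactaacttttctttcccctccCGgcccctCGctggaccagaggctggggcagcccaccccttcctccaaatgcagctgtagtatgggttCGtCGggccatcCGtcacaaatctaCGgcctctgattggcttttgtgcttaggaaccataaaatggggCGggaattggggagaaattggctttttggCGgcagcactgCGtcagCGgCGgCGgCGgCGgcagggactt
Miat: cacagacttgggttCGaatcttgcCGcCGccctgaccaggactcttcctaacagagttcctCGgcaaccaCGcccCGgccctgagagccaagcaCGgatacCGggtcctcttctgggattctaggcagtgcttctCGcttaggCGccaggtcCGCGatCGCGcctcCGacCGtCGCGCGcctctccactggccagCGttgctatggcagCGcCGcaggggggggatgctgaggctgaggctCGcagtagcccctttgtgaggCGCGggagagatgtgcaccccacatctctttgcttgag
Gm2694: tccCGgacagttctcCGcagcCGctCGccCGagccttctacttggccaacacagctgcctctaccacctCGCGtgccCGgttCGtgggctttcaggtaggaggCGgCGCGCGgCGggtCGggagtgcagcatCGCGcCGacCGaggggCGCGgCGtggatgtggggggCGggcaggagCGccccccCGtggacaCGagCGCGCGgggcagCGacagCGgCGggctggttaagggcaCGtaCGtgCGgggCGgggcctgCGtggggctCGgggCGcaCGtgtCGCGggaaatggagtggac
Neat1 transcript start: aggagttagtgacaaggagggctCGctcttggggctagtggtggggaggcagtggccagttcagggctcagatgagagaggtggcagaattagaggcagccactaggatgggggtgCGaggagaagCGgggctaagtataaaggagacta

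Neat1 was higher in the susceptible library and much higher in the AAV-CDYL library, while Miat was below its reference in both pairs, past 1.5-fold in the AAV pair only. Malat1, the most abundant member after stress, did not reach 1.5-fold there. The control library had 6.67 FPKM of Neat1 and the susceptible library 14.9, while AAV-GFP had 5.12 and AAV-CDYL 44.4. Each treated library was above its own reference, by 2.24-fold after stress and 8.67-fold with AAV-CDYL; the 2 tables were normalized separately, so levels are compared only within a pair. Over its single exon of 20771 nt these values correspond to about 1996, 7297, 2415 and 21781 fragments, so counting error is small beside the differences. In the authors' deposited table Neat1 has p = 0.00270 (q = 0.397) after stress and p = 5e-05 (q = 0.00727) with AAV-CDYL, the one member with q under 0.05 in either table.

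Miat, also called Gomafu, forms nuclear foci in neurons. Its level was 63.0 FPKM in control, 42.5 in susceptible, 49.9 in AAV-GFP and 32.7 in AAV-CDYL, in a locus it shares with other listed genes. The ratio of reference to treated was 1.48 and 1.53, so that only the second passed 1.5-fold on the log2(FPKM + 1) scale (-0.56 and -0.60). Centring on the median of all listed genes brings the first past it as well. Malat1, a component of nuclear speckles, stood at 140 in control and 112 in susceptible, and shares its locus with 2 other listed genes. It is not listed in the AAV table, where no gene above 0 in both libraries has a log2 ratio under 0.32. Pvt1, the neighbour of Myc, stood at 10.4 in AAV-GFP and 8.26 in AAV-CDYL. On the list of nuclear and chromatin lincRNAs 3 of 11 genes were members in each table. After stress 1 was higher and 0 were lower (median difference -0.32), and with AAV-CDYL 1 was higher and 1 lower (median -0.30). Of all genes at 2 FPKM or more, 18.3% were higher and 11.3% lower after stress, and 30.0% and 15.7% in the AAV pair.

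Proteins of paraspeckles and nuclear speckles, the partners of Neat1 and Malat1, differed far less than Neat1. Of 21 such genes 3 were listed in the stress table, all above control without reaching 1.5-fold (median 0.53, beside -0.26 over all 4321 genes). Of these genes the AAV table listed 9, and 7 were above AAV-GFP, with a median of 0.46, beside 0.22 over all 6927 genes and -0.30 over the 6164 that are protein-coding. The 1 that reached 1.5-fold was Tardbp, the RNA-binding protein TDP-43, at 96.4 and 145 FPKM. Matr3, a nuclear matrix protein, was listed at 198 FPKM in AAV-GFP and 148 in AAV-CDYL, short of 1.5-fold.

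Among lincRNAs of immune cells, AW112010, which macrophages switch on during inflammation, was low in both reference libraries and higher in both treated ones. Its values under 2 FPKM in each reference library left it no other direction as a member. Levels were 0.391 FPKM (control), 3.58 (susceptible), 1.15 (AAV-GFP) and 22.2 (AAV-CDYL). These are ratios of 9.17 and 19.2, resting on about 4.33, 64.9, 20.2 and 404 fragments over 770 nt. It was the only member among the 14 immune and stress lincRNAs listed. AU020206 (1.34 and 14 FPKM, 10.5-fold) and AI662270 (0.126 and 5.87, 46.6-fold) were also higher with AAV-CDYL and are no members after stress. Both were under 2 FPKM in AAV-GFP, so the choice fixed their direction too, and the fold of AI662270 rests on a low value. Neither is on the immune and stress list, and they were named for the size of their difference. GENCODE M21 types AI662270 as a processed transcript.

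Markers of immune cells and of interferon differed beside these. Among all genes at 2 FPKM or more 30.0% were higher and 15.7% lower with AAV-CDYL, and 18.3% and 11.3% after stress. Interferon-induced genes summed to 28.7 FPKM in AAV-GFP and 1018 in AAV-CDYL, with 14 of 14 higher. Microglia and macrophage markers summed to 250 and 1947 (11 of 12 higher). Lymphocyte markers summed to 0.698 and 1516, and 8 of 13 were listed at 0 in AAV-GFP, among them Cd3g, Cd3d, Cd8a and Igkc. After stress the sums were 23.7 and 56.9 for interferon-induced genes (5 of 7 at 2 FPKM or more higher), 194 and 209 for microglia (1 of 8 higher, 2 lower) and 0.347 and 5.42 for lymphocytes. Their part in the values of Neat1, AW112010, AU020206 and AI662270 was not tested. In bulk tissue a change in the number of cells of a type and a change of RNA per cell cannot be told apart.

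**Figure D1:**
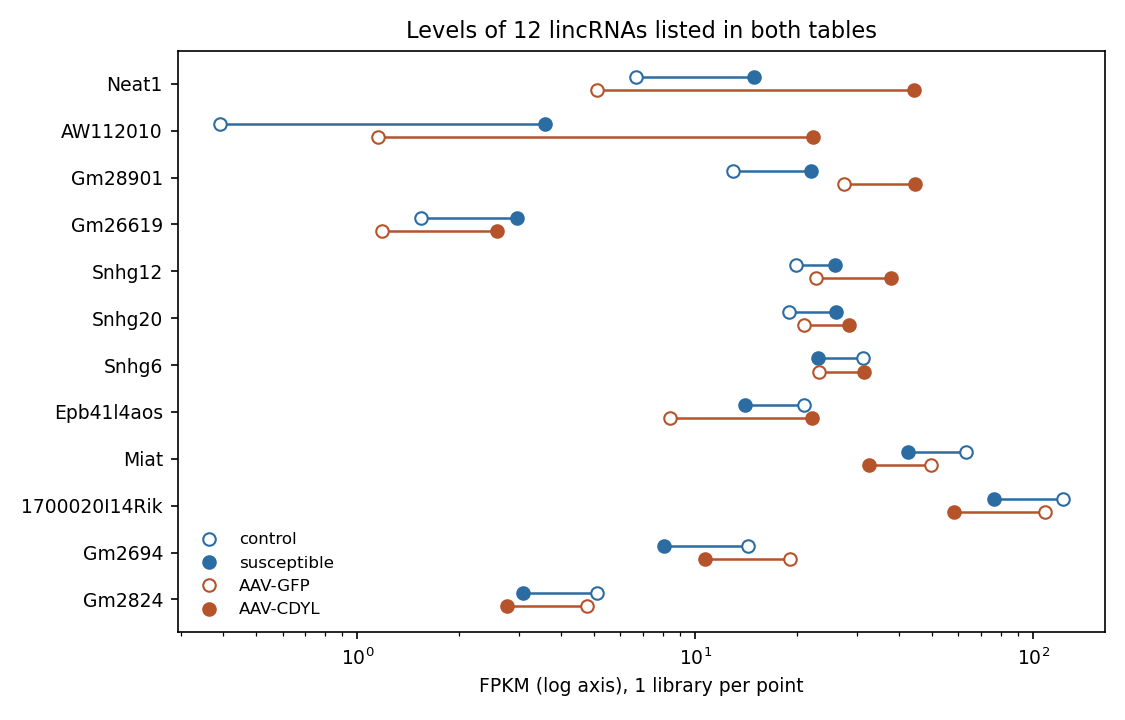
FPKM (log axis) of 12 lincRNAs listed in both tables, with 1 library per point, open for the reference and filled for the treated library, and a line joining each pair (blue stress, orange AAV). In both pairs Neat1 and AW112010 have the filled point to the right of the open one and Miat, 1700020I14Rik, Gm2694 and Gm2824 to the left, and Epb41l4aos and Snhg6 switch sides between the pairs.

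On the list of neural lincRNAs Cyrano, 1700020I14Rik, stood highest, and it was put on that list after its values were seen. It had 122 FPKM in control, 76.2 in susceptible, 108 in AAV-GFP and 58.1 in AAV-CDYL. Each treated library was below its reference, by ratios of 1.60 and 1.85. By mean level it ranked first among members of the AAV table and next to Malat1 among those after stress. The authors' deposited table gives it p = 0.0481 and p = 0.134.

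Gm2694 starts on the opposite strand from Cbln1, whose product organizes synapses, with 220 bases between the gene bodies. The control library had 14.3 FPKM of it, susceptible 8.07, AAV-GFP 19.1 and AAV-CDYL 10.7, ratios of 1.77 and 1.79. Cbln1 was below its reference too, at 8.71 and 6.19 after stress and 9.99 and 7.32 in the AAV pair, without reaching 1.5-fold. Gm2824 was lower in both pairs as well, 5.13 and 3.08 in the stress pair and 4.78 and 2.76 in the AAV pair.

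Rmst, a lincRNA of neurogenesis that works with Sox2, went the other way after stress, at 1.04 and 2.24 FPKM, although a control value under 2 FPKM left it no other direction. Tunar, which is known from neural differentiation and which GENCODE M21 types as protein-coding, stood at 2.28 and 1.56. Kantr, a neural transcript of the X chromosome also retyped as protein-coding, stood at 23.4 in AAV-GFP and 15.1 in AAV-CDYL. Of 29 neural and developmental lincRNAs listed for this work, 4 were members after stress (1 higher, 2 lower) and 2 in the AAV table (0 higher, 2 lower). Without 1700020I14Rik the list held 1 higher, 1 lower and 1 neither after stress, and Gm2694 alone in the AAV table. Shares over all genes at 2 FPKM or more were 18.3% higher and 11.3% lower after stress, and 30.0% and 15.7% in the AAV pair.

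All listed neuronal markers lay below the reference in both pairs, though after stress most did not reach 1.5-fold. In the AAV pair 9 of 10 such genes were listed and 5 were lower, with a sum of 4231 FPKM in AAV-GFP and 2736 in AAV-CDYL. After stress only 4 of the 10 were listed, 1 was lower, and the sums over those 4 were 1176 and 830. The stress table lists no gene above 0 in both libraries with a log2 ratio under 0.32 in size. Markers that are not listed, among them Snap25, Slc17a7 and Camk2a after stress, enter neither the counts nor the sums, here or in the sets below. Oligodendrocyte markers were higher in both pairs, 662 and 2573 FPKM with 12 of 12 higher, and 615 and 1586 with 10 of 11 higher. No marker of either type was listed at 0 in any library. Markers of striatal neurons stood the other way after stress, with 6 of 7 higher and sums of 71.0 and 120 FPKM, and gave 2 higher and 1 lower of 5 in the AAV pair (53.7 and 52). Astrocyte markers summed to 402 and 666 after stress (3 of 6 higher) and to 174 and 636 in the AAV pair (5 of 6 higher, 1 lower), with Gfap at 5.85 and 386. Endothelial markers summed to 77.6 and 219 (4 of 7 higher) and to 71.1 and 156 (3 of 5 higher). Those of choroid plexus and ependyma summed to 1.22 and 4.33 and to 1.44 and 10.3, with 4 of 8 listed at 0 in control and 3 in AAV-GFP. The part of these cell types in the lower levels of Miat, 1700020I14Rik and Gm2694 was not tested.

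Host genes of small RNAs included members on opposite sides in the 2 pairs. Epb41l4aos, which carries a snoRNA, had 21 FPKM in control, 14 in susceptible, 8.38 in AAV-GFP and 22.1 in AAV-CDYL. It was thus below its reference in one pair and 2.64-fold above it in the other. Snhg6, the host of Snord87, did the same within 1.5-fold (31.4 and 23.0, then 23.2 and 31.5).

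Snhg12, which carries Snora16a, Snora44, Snora61 and Snord99, was above its reference in both pairs, at 19.9 and 25.8 FPKM and at 22.8 and 37.9, where only the AAV difference passed 1.5-fold. Scaling the libraries to a common upper quartile takes it back under that size. Snhg20, which holds Mir6516, stood at 18.9 and 26.0, and at 20.9 and 28.4. Of 40 host genes on the list 4 were members after stress with 0 higher and 0 lower, and 5 in the AAV table with 2 higher and 0 lower (median 0.43). Over all genes at 2 FPKM or more 18.3% were higher and 11.3% lower after stress, and 30.0% and 15.7% in the AAV pair.

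The other hosts of microRNAs among the members had lower levels than Snhg20. The miR-101a host E130102H24Rik had 4.01 FPKM in control, 5.32 in susceptible, 2.28 in AAV-GFP and 6.09 in AAV-CDYL. The let-7 host 6720427I07Rik stood at 1.44 and 2.19 in the stress pair, and the miR-191 and miR-425 host 4833445I07Rik at 2.79 and 2.11 in the AAV pair. Mirg, the maternally expressed host of 14 microRNA genes in the imprinted Dlk1-Dio3 region, stood at 8.79 and 11.9 in the AAV pair and was the only member among 13 lincRNAs of imprinted loci. The miR-325 host 5330434G04Rik stood at 3.09 and 2.26, and at 3.54 and 1.97, and the miR-1839 host 2900076A07Rik at 4.06 and 6.15 in the AAV pair. Of all these hosts E130102H24Rik (higher) and 5330434G04Rik (lower) passed 1.5-fold, both in the AAV pair only.

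Imprinted protein-coding genes showed no common direction. After stress 13 of 39 were at 2 FPKM or more, with 4 higher and 1 lower, and with AAV-CDYL 15, with 2 higher and 3 lower. The shares over all genes were 18.3% and 11.3% after stress and 30.0% and 15.7% in the AAV pair. Nnat, a small membrane protein, stood at 51.2 and 75.4 FPKM and at 66.5 and 115, while Zdbf2 stood at 5.07 and 2.75 and at 5.76 and 3.64.

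The largest differences on the log scale included 2 lincRNAs annotated in a ribosomal RNA gene on chromosome 17, whose values cannot be read as separate genes. AY036118 (chr17:39847113-39848035, minus strand) was listed at 0 in control and AAV-GFP, and at 7.13 FPKM in susceptible and 12.1 in AAV-CDYL. Gm42418 (chr17:39846958-39848788, plus strand) stood at 3.59 and 13.5, and at 0.00771 and 8.40. The ribosomal RNA gene Rn18s-rs5 (chr17:39846353-39848827) lies over both, and went the opposite way.

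Levels of Rn18s-rs5 were 506 FPKM in control, 129 in susceptible, 691 in AAV-GFP and 137 in AAV-CDYL. Gm26917, a lincRNA just beside it, stood at 8.04 and 12.5, and at 10.5 and 21.6 (higher in the AAV pair only). The summed level of the 4 genes was 518 and 162, and 701 and 179, so the region as a whole was lower in both treated libraries. AY036118, Gm42418 and Rn18s-rs5 form 1 locus in the authors' tables, and their exons overlap by 100% and 99.5% for the lincRNAs. The kit does not mark strand. How ribosomal RNA removal or the splitting of fragments among these genes bears on the values was not tested.

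A further set of members was listed at 0 in 1 library. Gm42891 (7.38 FPKM in control), Gm19705 (3.25) and Gm44160 (2.23) were listed at 0 in susceptible, and Gm13166 (6.87 in susceptible) at 0 in control. In the AAV pair Gm32950 (11.4) was listed at 0 in AAV-CDYL, and Gm38843 (5.18 in AAV-CDYL) and Gm43690 (2.49) at 0 in AAV-GFP. All but Gm13166 have longest transcripts of 232 to 678 nt, so their values rest on few fragments, from about 15.6 for Gm43690 to 60.3 for Gm32950. An FPKM of 0 can be a failed estimate, and no fold is given. In the other table Gm19705 stood at 1.77 and 0.362 and Gm44160 at 0.881 and 0.160, below the reference there too. Gm13166 shares its locus with 21 other listed genes and stood at 2.29 and 3.78 in the AAV pair.

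Over all members, both directions were called. The tables list no gene above 0 in both libraries with a log2 ratio under 0.32 in size, so the shares are of listed genes only. After stress 16 of 88 were higher and 14 lower, where 18.3% of all genes at 2 FPKM or more were higher and 11.3% lower. With AAV-CDYL 24 of 99 were higher and 22 lower, beside 30.0% and 15.7% of all genes. Scaling to a common upper quartile gives 12 higher and 25 lower after stress, beside 504 and 1289 of all 4321 genes. In the AAV pair it gives 15 higher and 48 lower, beside 1435 and 3287 of all 6927 genes. That scaling moves genes at 2 FPKM or more by a median of -0.19 after stress and -0.30 in the AAV pair.

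By the authors' p under 0.05, 2 members were higher and 4 lower after stress (background 6.29% and 3.17%), and 3 higher and 0 lower with AAV-CDYL (9.37% and 0.650%). For the 0, 22 members were lower by the size rule. The 2 higher after stress were Neat1 and AY036118, and the 4 lower were Gm19705, Gm44160, 1700086L19Rik and 1700020I14Rik. The 3 in the AAV table were Neat1, AW112010 and Gm38843.

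The median difference was 0.27 after stress (all genes -0.26) and -0.30 with AAV-CDYL (all genes 0.22). Since genes with small differences are not listed, a median sits on whichever side holds slightly more genes: 45 members were above and 43 below control, and 43 above and 56 below AAV-GFP. Without the 3 members in or beside the ribosomal RNA gene the stress median is -0.24.

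Among members at 2 FPKM or more in both libraries, where the choice fixed no direction, 3 of 48 were higher and 8 lower after stress (6.25% and 16.7%), beside 13.3% and 11.1% of 3568 genes of all types. With AAV-CDYL 10 of 64 were higher and 14 lower (15.6% and 21.9%), beside 19.5% and 17.7% of 5521 genes. The shares that were lower lay near those of all genes, and the remaining differences were not tested.

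Against protein-coding genes of the same level the AAV pair differed most at low values. At a mean under 5 FPKM, 21.1% of 57 lincRNAs were higher and 21.1% lower, whereas 48.3% of 1656 protein-coding genes were higher and 6.70% lower. At 20 FPKM or more, 27.3% of 11 lincRNAs were higher and 36.4% lower, beside 15.4% and 24.4% of 2165 protein-coding genes. After stress the low class gave 20.6% higher and 12.7% lower for 63 lincRNAs, and 24.6% and 7.63% for 1180 protein-coding genes. The low class includes genes under 2 FPKM in 1 library, whose direction was fixed by the choice. Its shares thus depend on which library let genes in. At any mean level, 21 AAV members were under 2 FPKM in AAV-GFP (14 higher, 0 lower) and 14 in AAV-CDYL (0 higher, 8 lower).

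**Figure D2:**
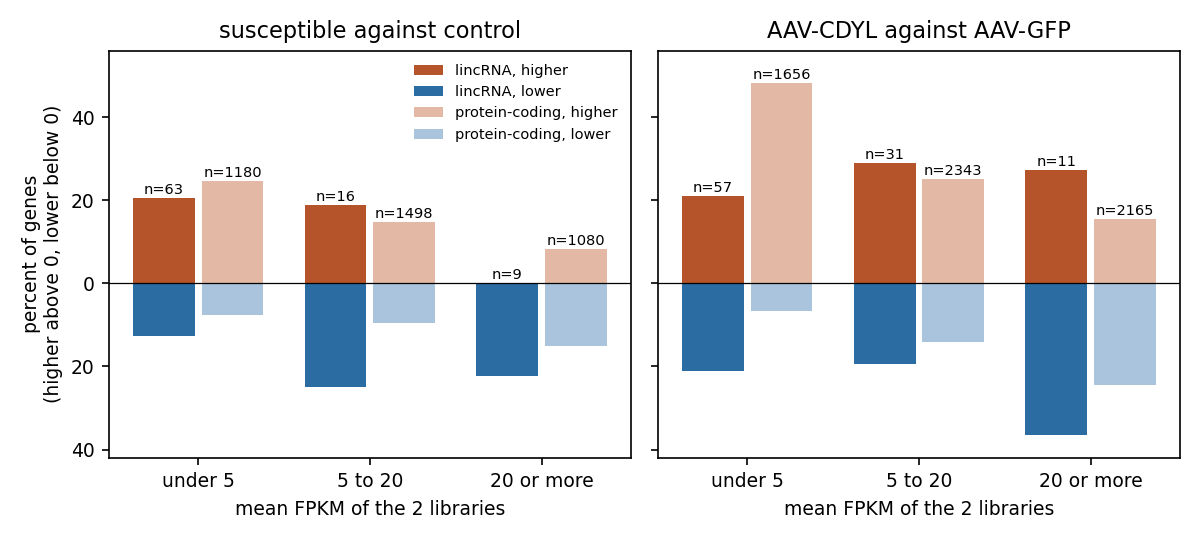
Percent of lincRNAs (dark) and protein-coding genes (pale) that were higher (above 0) or lower (below 0) by at least 1.5-fold, by mean FPKM of the 2 libraries, with the number of genes over each pair of bars. In the AAV pair under 5 FPKM the protein-coding bar reaches 48.3% higher and the lincRNA bar 21.1%. That class includes genes whose direction was fixed by the choice.

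**Figure D3:**
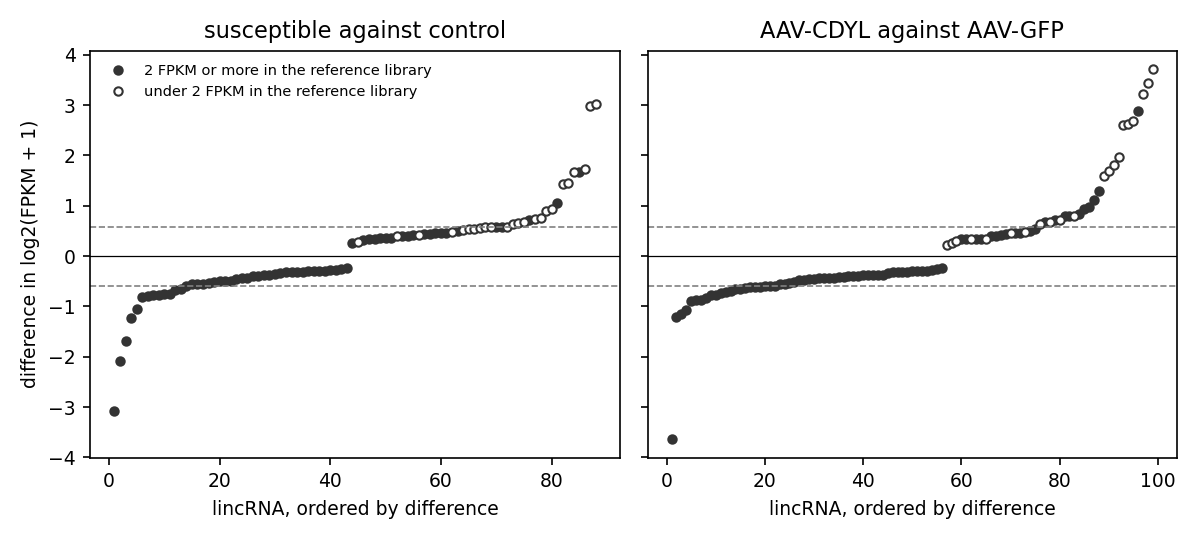
Difference in log2(FPKM + 1) of each lincRNA, ordered, for the 88 members of the stress table and the 99 of the AAV table; dashed lines mark 1.5-fold and open points are members under 2 FPKM in the reference library. Open points lie only above 0, and the gap around 0 is where the tables list no genes.

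The values just inside and outside the choice show how close the limit is. After stress 1700080G11Rik at 1.990 and Gm7160 at 1.989 FPKM missed it and BC030343 at 2.032 passed. In the AAV pair the gene 1810044D09Rik at 1.917 missed it and 2210008F06Rik at 2.024 passed.

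The 52 lincRNAs listed in both tables are 59.1% of the members after stress and 52.5% of those in the AAV table. The pairs share no library, and 39 of the 52 (75.0%) lay on the same side of the reference in both, where 83.7% of 2578 genes of all types did. Of these 18 were above and 21 below in both. The direction of some was fixed by the choice. Across the 52 lincRNAs, which are not replicates and share their libraries, the differences gave a Pearson correlation of 0.65 and a Spearman correlation of 0.49, beside 0.54 and 0.62 over all 2578 genes. For the 41 at 2 FPKM or more in both reference libraries they were 0.51 and 0.37, beside 0.62 and 0.61 over 2170 genes.

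Higher in both by 1.5-fold were 6 of the 52, AY036118, AW112010, Gm42418, Neat1, Gm28901 and Gm26619, where 14.8% of all genes were. AY036118 and AW112010 were under 2 FPKM in both reference libraries and Gm42418 was in AAV-GFP, so the choice fixed their direction there. Of the 41 members at 2 FPKM or more in both reference libraries 2 were higher in both, beside 221 of 2170 genes. Gm28901 stood at 12.9 and 22.0 FPKM and at 27.5 and 44.5, and 85.7% of its exon bases lie in other genes. Gm26619 stood at 1.54 and 2.96 and at 1.18 and 2.59, so its direction was fixed by the choice. Neither stays above 1.5-fold in either pair when libraries are scaled to a common upper quartile. Lower in both were 3, Gm2694, 1700020I14Rik and Gm2824, where 4.97% of all genes were.

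With a pseudocount of 1 and the deposited scaling no member was higher in one pair and lower in the other. Under other settings 3 of the named members were. Epb41l4aos passed 1.5-fold as lower after stress with a pseudocount of 0.1, with centring and with upper-quartile scaling (-0.75), while higher in the AAV pair. Higher after stress, 1300002E11Rik was lower in the AAV pair with upper-quartile scaling (-0.69), and 9330158H04Rik with that scaling and with a pseudocount of 0.1 (-0.67 in each). The members on opposite sides included Gm42517, at 45.6 and 60.7 FPKM after stress and 79.1 and 44.2 with AAV-CDYL, which GENCODE M21 types as protein-coding. 1300002E11Rik stood at 1.61 and 3.36, then at 3.97 and 2.67, and 9330158H04Rik at 0.638 and 2.11, then at 2.37 and 1.46.

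**Figure D4:**
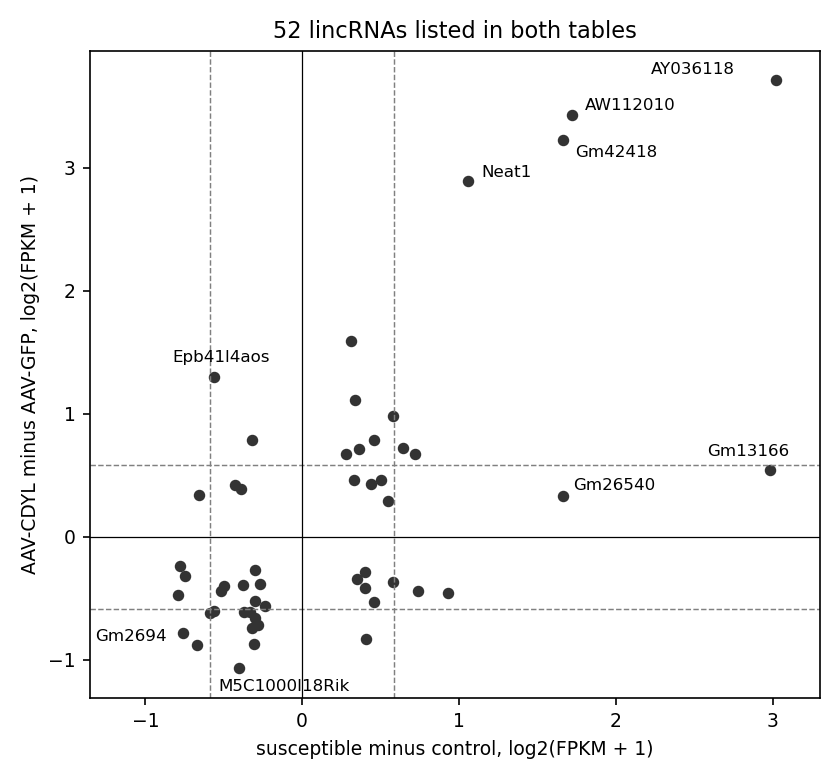
Difference in log2(FPKM + 1) of the 52 lincRNAs listed in both tables, susceptible minus control on the x axis and AAV-CDYL minus AAV-GFP on the y axis, 1 point per gene; dashed lines mark 1.5-fold. AY036118, AW112010, Gm42418 and Neat1 stand apart at the upper right, and 39 points lie in the upper right and lower left parts, where both differences have the same sign.

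Many lincRNAs lie beside a protein-coding gene, and divergent starts are a common arrangement. A protein-coding neighbour at 2 FPKM or more in the same table lay within 50 kb of 33 members after stress and 55 in the AAV table. The lincRNA and its neighbour were on the same side of the reference in 18 of the 33 (54.5%) and 35 of the 55 (63.6%). Between protein-coding genes and their nearest neighbour the shares were 57.2% of 1558 and 61.0% of 3639. The shares depend on distance and shared loci. With a neighbour of another locus within 10 kb they were 7 of 15 (46.7%) after stress and 25 of 32 (78.1%) in the AAV table. Protein-coding genes gave 54.1% of 525 and 61.2% of 1403 there, and the differences were not tested.

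Where the starts diverged within 1 kb, 3 of 3 pairs after stress and 7 of 10 with AAV-CDYL were on the same side. These pairs are few, and no share for divergent protein-coding genes was available to set beside them. Starts here are those of GENCODE M21, by which Gm2694 and Cbln1 start 12140 bases apart and are not counted. The start region of Gm2694 shown above uses a RefSeq start. 2810032G03Rik, 188 bases from Klhl29, stood at 5.87 and 4.52 FPKM after stress and 5.87 and 3.10 in the AAV pair, and Klhl29 at 14.9 and 10.7 and at 14.5 and 8.54. Gm15631, 79 bases from the cell adhesion gene Cntn4, stood at 5.58 and 3.16 with AAV-CDYL, and Cntn4 at 22.0 and 12.9. AI480526 went against its neighbour, the histone methyltransferase gene Setd1b, at 3.61 and 6.99 beside 6.77 and 5.25, and 8 more listed genes share its locus. Neat1 and Frmd8, the nearest listed protein-coding gene on its strand, were both above AAV-GFP, with Frmd8 at 2.77 and 9.24.

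**Figure D5:**
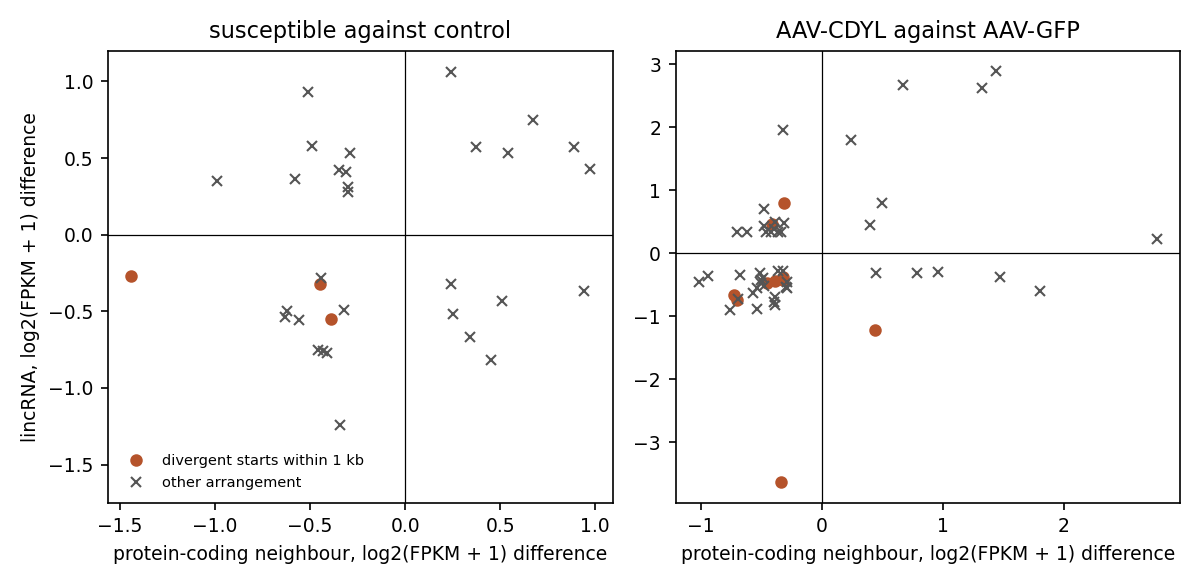
Difference in log2(FPKM + 1) of each lincRNA against that of its nearest protein-coding neighbour within 50 kb, for the 33 pairs after stress and the 55 in the AAV table; orange circles are divergent starts within 1 kb. In the stress panel the 3 circles lie at the lower left, and in the AAV panel 7 of 10 lie at the lower left, where both are below the reference.

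RefSeq gave 84 start regions of 76 members. In these 5 motifs were sought on both strands: the interferon-stimulated response element core, the cAMP response element TGACGTCA, the glucocorticoid response element, the STAT site TTCNNNGAA and the TATA box TATAAA. The interferon core was in 3 of the 84 (3.57%; 3.44% of all 32851 start regions), the cAMP element in 4 (4.76%; 1.79%) and the glucocorticoid element in 0 (0.475% of all). The STAT site was in 3 (3.57%; 8.30%) and the TATA box in 7 (8.33%; 13.6%). The interferon core was in 2 of 8 start regions of members higher after stress, 0 of 10 lower and 0 of 32 neither. With AAV-CDYL it was in 0 of 14 higher, 0 of 15 lower and 2 of 34 neither. These are matches of letters and not shown to be bound.

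Gm12371 held 2 matches to the interferon core, the only member's start region with more than 1 of that motif. Control had 1.90 FPKM of it and susceptible 3.55, and the control value under 2 FPKM left it no other direction. It is not listed in the AAV table. Its start region (chr4:36952716-36953015, plus strand, GRCm38.p6) is shown with both matches in capitals, the first on the opposite strand.
Gm12371: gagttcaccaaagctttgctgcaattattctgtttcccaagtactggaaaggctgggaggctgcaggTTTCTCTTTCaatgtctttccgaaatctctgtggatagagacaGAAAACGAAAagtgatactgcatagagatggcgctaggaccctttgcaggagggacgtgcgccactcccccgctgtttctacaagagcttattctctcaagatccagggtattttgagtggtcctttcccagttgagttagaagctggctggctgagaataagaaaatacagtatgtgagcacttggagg
None of the 5 motifs was found in the windows of AW112010, AU020206, Miat, Gm2694 or 1700020I14Rik. The median start region of members held 11 CG dinucleotides and that of all genes 7. Among members of the AAV table it was 12 in the 14 start regions of those higher, 23 in the 15 of those lower and 11 in the 34 of those called neither. After stress it was 6 (of 8), 4 (of 10) and 25 (of 32), so no order by direction was shared by the pairs.

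The annotation of the members varied. Of 135 lincRNAs 131 were found in GENCODE M21, where 123 kept the type and 8 had another, 3 of them protein-coding. The median of the longest transcripts was 1700 nt, with a range from 232 nt to the 20771 nt of Neat1. A single transcript was annotated for 53 and a single exon for 26. Exon bases lay in other genes for 53 members, and at least 50% of them for 13. A locus with another listed gene was shared by 27 members after stress and 37 in the AAV table, and fragments of such genes cannot be assigned with certainty. Chromosome 5 held the most members, 20.

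Depth limits what can be read from the lower members. Steps between low FPKM values place the library size near 14400000 fragments (control), 23500000 (susceptible), 22700000 (AAV-GFP) and 23600000 (AAV-CDYL). At 1 FPKM a transcript of 2 kb rests on about 28.9, 46.9, 45.3 and 47.2 fragments. Fragment numbers above use the longest annotated transcript and cover counting error only. Cdyl itself stood at 2.68 FPKM in AAV-GFP and 1052 in AAV-CDYL, as the labels of the 2 libraries say, and at 1.98 in control and 2.54 in susceptible.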

How the data were processed

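RNA sequencing values were taken from 2 tables deposited by the authors, 1 per pair of libraries. The FPKM values were made by the authors with Cuffdiff on the mouse build mm10, per the submitters' processing notes. The aligner is not given in the sources used here, nor is the gene annotation. The authors also deposited a p-value and a q-value per gene, each from 1 library against 1 library, which are printed as theirs alone. Per the labels' protocols, libraries were made from Trizol RNA with a NEBNext Ultra kit. Since the 2 tables were scaled apart from each other, every difference is within 1 of them. One header lacks a letter of "Susceptible" and was matched to that title; 0 per-sample columns were left unmapped.

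Members, gene lists and tests were chosen with earlier results of these data known. Differences are log2(FPKM + 1), treated minus reference, which understates differences of low genes; 1.5-fold on that scale was called higher or lower. Values up to 1e-06 were treated as 0. With 1 library per group there was no test and no p-value was computed. Named lincRNAs are members on a list, the 5 highest and the 8 largest differences per direction per table at a mean of 2 FPKM or more, and the 6 per direction with the largest difference in both tables; microRNA hosts, divergent pairs, members listed at 0, motif holders, AU020206's start region and Kantr were named after their values were seen, as was the miR-7 site. 1700020I14Rik was moved from the host list to the neural list after the values were seen.

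Depth came from the spacing of low FPKM values among single-transcript genes of 3 to 20 kb. Below 4.5 steps, 91.0% of the values or more fell no further than 0.15 from a whole step. It ignores fragment length and includes the authors' scaling. This and the size rule were tested on simulated data. Positions and transcripts are from GENCODE M21 (GRCm38, the same build as mm10), start regions and microRNAs from RefSeq (GRCm38.p6), in which 95 of 135 members were matched. Alternatives were pseudocounts of 0.1 and 0.5, other minimum levels, a 2-fold rule, centring, upper-quartile scaling, leaving out shared loci and the authors' p. The software was matplotlib 3.10.9, scipy 1.17.1, pandas 2.3.3, numpy 2.4.6 and Python 3.11.15.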

Additional observations from a re-analysis of the deposited data

How the results depend on the processing

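No paired analysis was possible because each group holds 1 library. After stress, where 16 members were higher and 14 lower, a pseudocount of 0.1 gave 28 higher and a pseudocount of 0.5 gave 26. Members at 1 FPKM or more gave 32 higher and 25 lower, members at 5 FPKM or more 5 and 9, no minimum 43 and 32, and 1 FPKM or more in control 8 and 25. A 2-fold rule gave 8 and 5, and the authors' p under 0.05 gave 2 and 4. Scaling to a common upper quartile gave 25 lower, beside 1289 of all 4321 genes, and leaving out members that share a locus gave 8 higher. The stress median of 0.27 became -0.31 for members at 1 FPKM or more in control and -0.24 without the 3 members in or beside the ribosomal RNA gene, an alternative chosen after seeing the data.

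With AAV-CDYL, where 24 were higher and 22 lower, members at 1 FPKM or more gave 37 higher, members at 5 FPKM or more 12 lower, and no minimum 53 and 39. A 2-fold rule gave 13 and 4, and the authors' p under 0.05 gave 3 and 0. Upper-quartile scaling gave 15 and 48, beside 1435 and 3287 of all 6927 genes. The median of -0.30 became 0.03 with no minimum and -0.57 with upper-quartile scaling. The count on the same side in both tables, 39 of 52, became 62 of 83 at 1 FPKM or more, 17 of 25 at 5 FPKM or more, 372 of 604 with no minimum and 19 of 28 without shared loci. These counts move with how many members enter; the cause of the others was not tested.

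Each of 69 named differences was recomputed under 4 settings, which gave 276 values. Among differences past 1.5-fold 0 changed sign, but this was fixed in advance. A pseudocount keeps the sign, and centring and upper-quartile scaling shift values by less than 1.5-fold. Of the 276 values 128 moved by 0.1 or more. Sign changes of smaller differences were not counted apart. Upper-quartile scaling took Gm12371, Gm26619, Gm28901, Rmst and Snhg12 under 1.5-fold. It brought past it, as lower, 1300002E11Rik, 1700086L19Rik, 2210406O10Rik, 4930516B21Rik, 9330158H04Rik, A530017D24Rik, A830039N20Rik and Pvt1 in the AAV pair, and 4930516B21Rik, Epb41l4aos, M5C1000I18Rik, Miat and Snhg6 after stress. A pseudocount of 0.1 did so for 2210406O10Rik and 9330158H04Rik (AAV), 4930516B21Rik (both) and Epb41l4aos (stress), and brought Gm13166 (AAV) past it as higher. Depth limits the lower members, and without replicates no difference can be set against the spread between mice.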
